A study of Mus musculus with 22 samples.

Results

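The genes described here are 9 genes of mature oligodendrocytes and of the myelin they make: Opalin, Pllp, Aspa, Ugt8a, Gpr37, Mbp, Mog, Mag and Mobp. They are 9 of the 18193 genes measured, and each was read from the probe set, naming that gene alone, that was brightest on average over all arrays. RNA of wild-type C57Bl/6 mice from Jackson, 10 to 12 weeks of age, was hybridised to Affymetrix Mouse430_2 arrays following 7.5 min of aortic clamping. Sham mice had the operation without the clamp. Cord below T6 (caudal) and cord above T6 (rostral) went onto separate arrays: 3 caudal and 3 rostral arrays at 24 h, 4 and 4 at 48 h, and 3 and 4 after sham surgery. A further rostral array, number 276, is labelled with both times and belongs to no group. Every array holds RNA of spinal cord tissue with all its cells, so fewer oligodendrocytes and less RNA per oligodendrocyte cannot be told apart. Whether arrays of 1 group are separate animals is not in the labels; p-values therefore reflect the spread between these samples, which may be technical.

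Oligodendrocytes wrap the axons of the central nervous system in compact myelin, a stack of membranes rich in galactolipids. Mbp holds the cytoplasmic faces of that membrane together and is made from messenger RNA that is carried out to the myelin sheath, as is Mobp, while Mag and Mog sit at the inner and the outer surface of the sheath. Aspa cleaves N-acetylaspartate from neurons and frees acetate for lipid synthesis, Ugt8a makes galactosylceramide, Pllp (plasmolipin) and Opalin are membrane proteins of myelin and oligodendrocytes, and Gpr37 is a G protein-coupled receptor that restrains oligodendrocyte maturation in mice.

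Values are log2 RMA signals. The signal of 8 of the 9 genes lay above the upper quartile of its array on 21 of 21 grouped arrays, and that of Aspa on 20 of 21, so that a mature oligodendrocyte signal was present in every group. Mbp lay between 14.32 and 14.61, against array maxima of 14.74 to 14.88; how large a change so bright a probe set can show was not tested. The medians of the 22 arrays were between 6.79 and 6.88. Caudal 48 h array 271 stood apart, with an SD over its probe sets of 2.05, where the other 21 gave 2.21 to 2.27, and a median correlation of 0.912 with these. The Gapdh control probe sets differed by -1.05 (5' minus 3') on caudal 48 h array 274 and by -0.68 on caudal sham array 280, while all remaining arrays gave -0.21 to 0.04. The region genes of the 24 h arrays numbered 283 went against their labels: Hoxc10, a gene of the posterior cord, stood at 5.67 on the caudal array and at 10.14 on the rostral one. The other caudal 24 h arrays had 10.19 and 10.32 and the other rostral ones 5.38 and 5.75.

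The promoters are shown because the 9 genes did not move together after clamping, and because oligodendrocyte genes are known targets of the transcription factors MYRF and SOX10. RefSeq windows (GRCm38.p6), from 250 bases before to 50 bases after the start of the transcript, were searched for 8 of the 9 genes. No window of Mbp was searched, while the shares over all windows leave no chromosome out. Capitals mark the letters CTGGCAC (a MYRF core) or ACAANG (a SOX core) on either strand, and no match of one overlaps a match of the other in the windows printed. The first 3 windows belong to genes that were lower at 48 h in caudal or rostral cord, and the last 2 to genes that passed no test. Opalin lies on the minus strand at chr19:41077064-41077363, Pllp on the minus strand at chr8:94696193-94696492, Aspa on the minus strand at chr11:73324588-73324887, Mag on the minus strand at chr7:30914814-30915113 (the first of its 3 windows) and Mobp on the plus strand at chr9:120149492-120149791.
Opalin: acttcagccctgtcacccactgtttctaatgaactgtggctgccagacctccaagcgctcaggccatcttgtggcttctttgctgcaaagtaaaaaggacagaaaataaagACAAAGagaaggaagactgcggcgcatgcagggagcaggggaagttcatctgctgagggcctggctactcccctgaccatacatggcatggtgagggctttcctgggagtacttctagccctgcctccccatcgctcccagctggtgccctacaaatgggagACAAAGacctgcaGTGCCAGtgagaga
Pllp: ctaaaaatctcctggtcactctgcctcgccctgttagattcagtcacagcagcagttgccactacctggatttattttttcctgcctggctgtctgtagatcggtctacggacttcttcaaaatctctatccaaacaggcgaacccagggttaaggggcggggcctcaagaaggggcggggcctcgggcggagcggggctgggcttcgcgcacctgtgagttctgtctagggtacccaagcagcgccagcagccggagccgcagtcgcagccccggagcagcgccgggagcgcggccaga
Aspa: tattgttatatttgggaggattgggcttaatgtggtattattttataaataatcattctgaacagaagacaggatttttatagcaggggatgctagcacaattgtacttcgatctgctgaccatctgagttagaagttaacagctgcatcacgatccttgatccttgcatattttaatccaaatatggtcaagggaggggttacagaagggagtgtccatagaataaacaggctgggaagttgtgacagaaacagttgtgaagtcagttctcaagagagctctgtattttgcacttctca
Mag: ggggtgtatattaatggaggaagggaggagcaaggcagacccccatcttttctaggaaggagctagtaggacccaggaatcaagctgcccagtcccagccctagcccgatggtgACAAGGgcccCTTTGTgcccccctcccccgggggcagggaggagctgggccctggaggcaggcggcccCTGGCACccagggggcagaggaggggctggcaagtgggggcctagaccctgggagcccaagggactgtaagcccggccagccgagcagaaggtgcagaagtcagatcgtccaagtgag
Mobp: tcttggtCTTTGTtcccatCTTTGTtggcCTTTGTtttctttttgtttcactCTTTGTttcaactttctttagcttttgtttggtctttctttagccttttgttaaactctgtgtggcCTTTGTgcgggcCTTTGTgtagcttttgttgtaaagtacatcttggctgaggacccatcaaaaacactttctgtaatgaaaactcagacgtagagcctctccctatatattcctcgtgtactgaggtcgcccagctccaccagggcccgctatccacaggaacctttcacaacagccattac
The MYRF letters are in the Opalin window, 36 bases after the start, and in the Mag window, 68 bases before it, so in 2 of the 8 genes' first windows. They are in 5.01% of all 32851 promoter windows. The SOX letters are in 5 of the 8 first windows, with 6 matches in that of Mobp, 2 each in those of Opalin and Mag and 1 each in those of Gpr37 and Mog, against 41.2% of all windows holding at least 1. The windows of Pllp, Aspa and Ugt8a hold neither. A match describes the letters and is not a bound site.

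In caudal cord 48 h after clamping, Aspa, Ugt8a and Gpr37 were lower than after sham surgery. Their mean signals were 43.3%, 51.9% and 51.4% of the sham level. Opalin and Pllp did not pass the test. Mbp, Mog, Mag and Mobp, called the structural genes here as a label only, had log2 changes between -0.19 and -0.08, none of which passed. All 3 genes called were lower, that is 3 of 9, where 12.5% of all genes were called in either direction and 7.01% were called lower; the test throughout is limma's, with Benjamini-Hochberg adjustment over all genes. The change was negative for 9 of 9 genes, while the median change of all genes was 0.00. With a gene's probe sets averaged instead, Mbp was at -0.32 and was called lower (adjusted p = 0.0189). In the same setting Ugt8a, at -0.89, was not called (adjusted p = 0.0841).

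Aspa, the enzyme that frees acetate from N-acetylaspartate, had 9.34, 8.50, 9.72 and 10.20 on caudal 48 h arrays 271, 272, 273 and 274, against 10.69, 10.77 and 10.48 on caudal sham arrays 278, 279 and 280. All 4 clamped arrays lay below all 3 sham arrays, with array 272 lowest. The change was -1.21 ± 0.28 (SE; 95% interval -1.80 to -0.61; adjusted p = 0.0108), a 2.31-fold lower signal and the 32nd most negative change of the 18193 genes. Ugt8a, which makes the main glycolipid of myelin, had 10.92, 10.95, 11.63 and 11.73 in the same clamped order, against 12.22, 12.35 and 12.19 after sham surgery. Again no array overlapped, and arrays 271 and 272 were about equally low. Its change was -0.95 ± 0.25 (-1.48 to -0.41; adjusted p = 0.0227).

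Gpr37, the receptor, had 9.49, 9.68, 10.31 and 9.67 on the clamped caudal arrays, against 10.85, 11.00 and 10.41 on the sham arrays. The highest clamped array, 273, lay just under the lowest sham array, 280, which is the one with the low Gapdh 5' signal. The change was -0.96 ± 0.21 (-1.40 to -0.53; adjusted p = 0.00633). Aspa, Ugt8a and Gpr37 were the genes, 3 of 9, whose clamped arrays all lay below all sham arrays, a pattern found in 11.1% of all genes. The calls rest on few arrays: without caudal sham array 278 or 279 the adjusted p of Aspa was 0.0504 or 0.0502 and that of Ugt8a 0.075 or 0.0801, and in a fit of these 7 arrays alone the 3 genes had adjusted p-values of 0.278, 0.177 and 0.169. The changes themselves are the same in that fit, which has fewer arrays to estimate the spread from.

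Opalin, the oligodendrocyte membrane glycoprotein, had 11.21, 9.36, 9.47 and 10.27 on the clamped caudal arrays, against 10.47, 10.32 and 10.34 on the sham arrays. Array 271, the one that stands apart, was the highest of the 7, and the other 3 clamped arrays were below all sham arrays. The change over all arrays was -0.30 ± 0.32 (-0.97 to 0.38; adjusted p = 0.504), and without array 271 it was -0.67 (adjusted p = 0.0678). Pllp had 10.72, 10.11, 10.54 and 10.29 against 10.93, 11.03 and 10.58, so that only array 271 reached into the sham range. Its change was -0.43 ± 0.19 (-0.83 to -0.03; adjusted p = 0.123), and -0.53 without array 271 (adjusted p = 0.0676). Both genes passed under other settings: Opalin was at -0.89 with array weights (adjusted p = 0.000933) and at -0.98 without caudal arrays 271, 274 and 280 (adjusted p = 0.0115), and Pllp at -0.45 (adjusted p = 0.0333) and -0.66 (adjusted p = 0.0473) under the same settings. The weights of caudal 48 h arrays 271, 272, 273 and 274 were 0.0265, 0.470, 2.785 and 0.192, so array 273 counted most. The second setting set clamped arrays 272 and 273 against sham arrays 278 and 279 only.

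Of the structural myelin genes, Mbp, Mobp and Mag stayed close to sham on 3 of the 4 clamped caudal arrays, and Mog varied more. Mbp had 14.32, 14.47, 14.53 and 14.61, against 14.57, 14.59 and 14.56 after sham surgery, a change of -0.09 ± 0.07 (-0.24 to 0.06; adjusted p = 0.379). Mobp had 13.24 on array 271 and 13.85, 13.77 and 13.81 on the other clamped arrays, against 13.81, 13.70 and 13.80 after sham surgery. Its change was -0.10 ± 0.11 (-0.34 to 0.13; adjusted p = 0.502) with array 271 and 0.04 without it. Mag, the adhesion molecule that faces the axon, showed the same array far below the others, with 11.68 on array 271 and 12.38, 12.46 and 12.41 on the other clamped arrays, against 12.49, 12.40 and 12.38. The change of Mag was -0.19 ± 0.14 (-0.47 to 0.10; adjusted p = 0.314). Mog, on the outer surface of myelin, had 11.14, 10.08, 10.58 and 11.00 against 10.86, 10.65 and 10.84, with clamped arrays both above and below the sham arrays. The Mog change was -0.08 ± 0.18 (-0.45 to 0.29; adjusted p = 0.741). Without array 271 the change was -0.03 for Mbp and -0.01 for Mag.

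**Figure D1:**
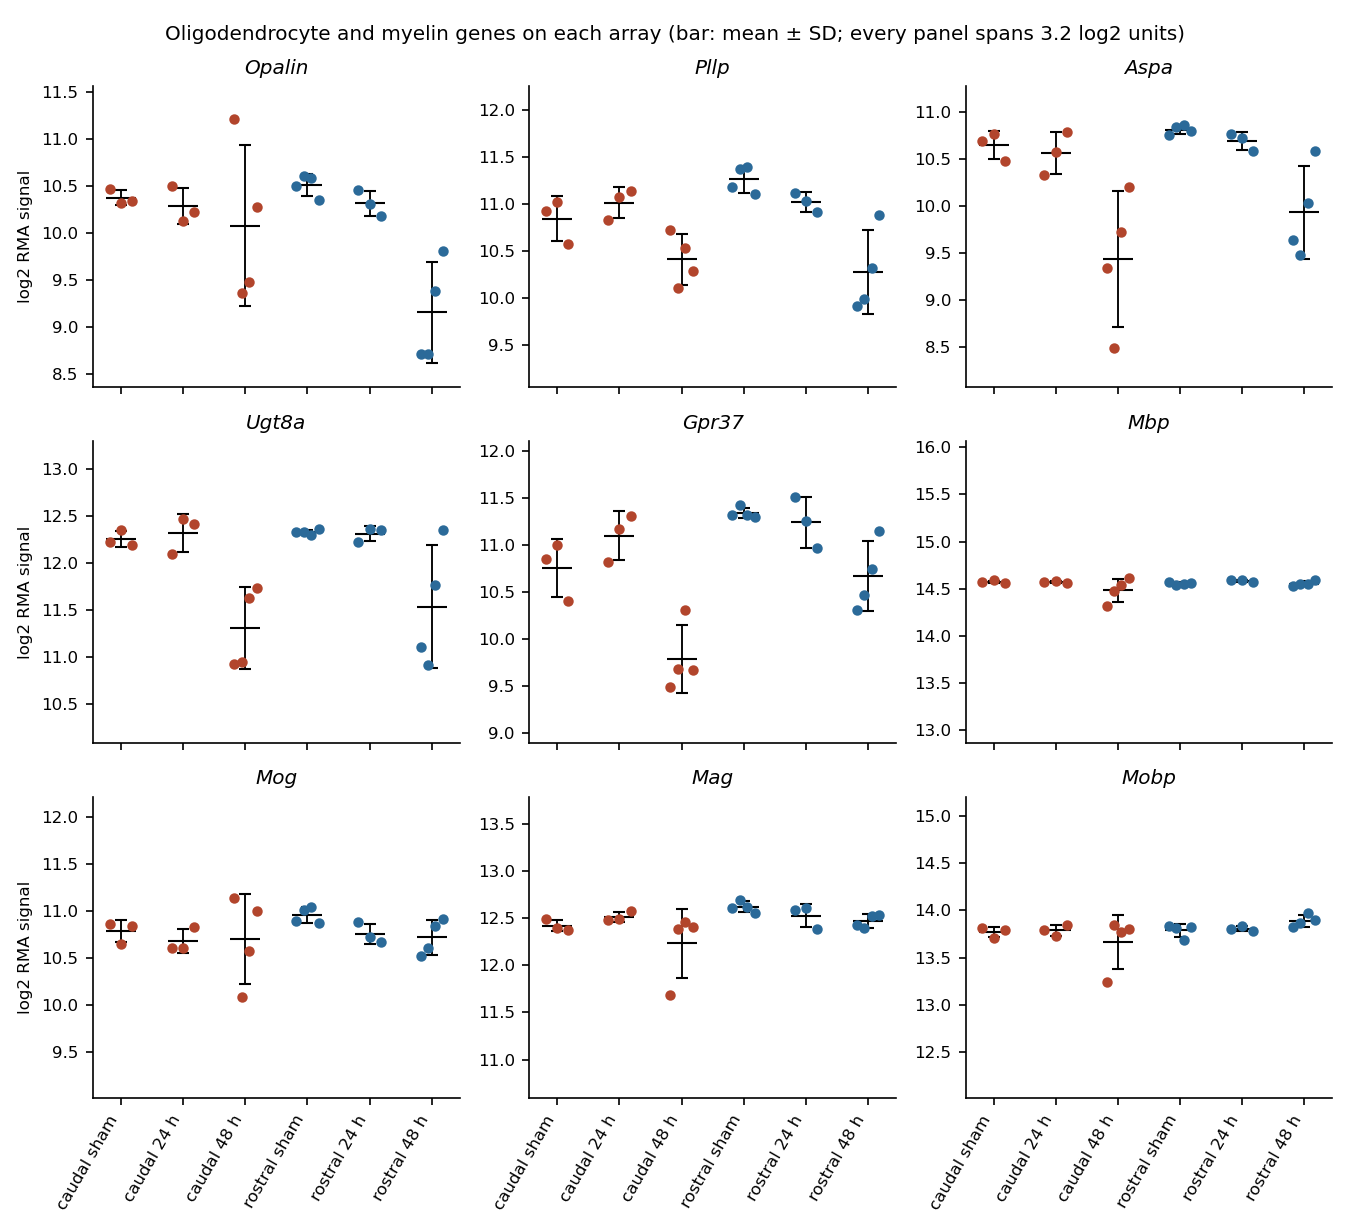
Log2 RMA signal of each of the 9 genes on each of the 21 grouped arrays, by group along the horizontal axis (red for caudal and blue for rostral cord; points are arrays, black bars the mean ± SD; every panel spans the same range of log2 units). Aspa, Ugt8a and Gpr37 lie below sham on all caudal 48 h arrays, Opalin, Pllp, Aspa, Gpr37 and, by little, Mag on all rostral 48 h arrays, and Mbp and Mobp hardly move apart from 1 low caudal array.

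In rostral cord 48 h after clamping, above the level of T6, Opalin and Pllp were lower than after sham surgery, at 39.1% and 50.4% of the sham level. Aspa, Ugt8a and Gpr37 had changes between -0.88 and -0.67 that did not pass the test, and Mbp and Mobp were at 0.00 and 0.10. The calls were thus 2 of 9 genes, both lower, where 0.616% of all genes were called in either direction and 0.143% were called lower. In 5 of 9 genes the clamped arrays lay entirely below the sham arrays (Opalin, Pllp, Aspa, Gpr37 and Mag), as they did in 7.45% of all genes. The change was negative for 7 of 9 genes, with a median of -0.02 over all genes.

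Opalin had 8.71, 8.71, 9.38 and 9.81 on rostral 48 h arrays 271, 272, 273 and 274, against 10.50, 10.61, 10.58 and 10.35 on rostral sham arrays 277, 278, 279 and 280. Every clamped array was below every sham array, and the sham arrays were close together. The change was -1.36 ± 0.30 (-1.98 to -0.73; adjusted p = 0.0428), a 2.56-fold lower signal and the 5th most negative change of the 18193 genes. The call was kept under 13 and lost under 23 of 36 alternatives, with an adjusted p of 0.0829 without the arrays numbered 283 and 0.00154 without caudal array 271. With the gene's 2 probe sets averaged the change was -0.72 (adjusted p = 0.204), and with array 276 counted as 48 h it was -1.10 (adjusted p = 0.361). Pllp had 9.92, 9.99, 10.32 and 10.89, against 11.18, 11.38, 11.40 and 11.11, with no overlap and array 274 nearest to sham. The Pllp change of -0.99 ± 0.18 (-1.36 to -0.62; adjusted p = 0.00823) was the 20th most negative of all genes. It was called under 34 of 36 alternatives, and the adjusted p was 0.051 without rostral array 272 and 0.128 with array 276 counted as 48 h.

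Aspa had 9.64, 9.48, 10.03 and 10.59 on the clamped rostral arrays, against 10.76, 10.84, 10.86 and 10.80 on the sham arrays. All clamped arrays were below sham, by little for array 274. The change was -0.88 ± 0.26 (-1.43 to -0.33; adjusted p = 0.193). Ugt8a had 11.10, 10.92, 11.77 and 12.35 against 12.32, 12.33, 12.30 and 12.36, so that array 274 was within the sham range and the other 3 were below it. Its change was -0.79 ± 0.24 (-1.29 to -0.30; adjusted p = 0.193). Gpr37 had 10.31, 10.47, 10.75 and 11.15 against 11.32, 11.42, 11.32 and 11.30, again with no overlap. The change of Gpr37 was -0.67 ± 0.19 (-1.07 to -0.27; adjusted p = 0.168). Array 274 was the nearest to sham for Opalin, Pllp, Aspa, Ugt8a and Gpr37. Without it the changes of Aspa, Ugt8a and Gpr37 were -1.10, -1.07 and -0.83, with adjusted p-values of 0.0343, 0.00735 and 0.0284, and 5 of 9 genes were called. Without rostral array 272, 0 of 9 were called.

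The structural genes again lay near sham in rostral cord. Mbp had 14.53, 14.55, 14.54 and 14.59 against 14.57, 14.54, 14.55 and 14.56, a change of 0.00 ± 0.07 (-0.14 to 0.14; adjusted p = 1). Mobp had 13.82, 13.87, 13.97 and 13.90 against 13.83, 13.82, 13.69 and 13.82, a change of 0.10 ± 0.10 (-0.11 to 0.32; adjusted p = 1). The clamped and sham arrays of these genes could not be separated. Mag had 12.42, 12.40, 12.53 and 12.53 against 12.61, 12.70, 12.62 and 12.56. Its clamped arrays all lay below sham, yet by so little that the change was -0.15 ± 0.13 (-0.41 to 0.11; adjusted p = 1). Mog had 10.52, 10.61, 10.84 and 10.91 against 10.90, 11.01, 11.04 and 10.87, a change of -0.24 ± 0.16 (-0.58 to 0.11; adjusted p = 0.999).

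**Figure D2:**
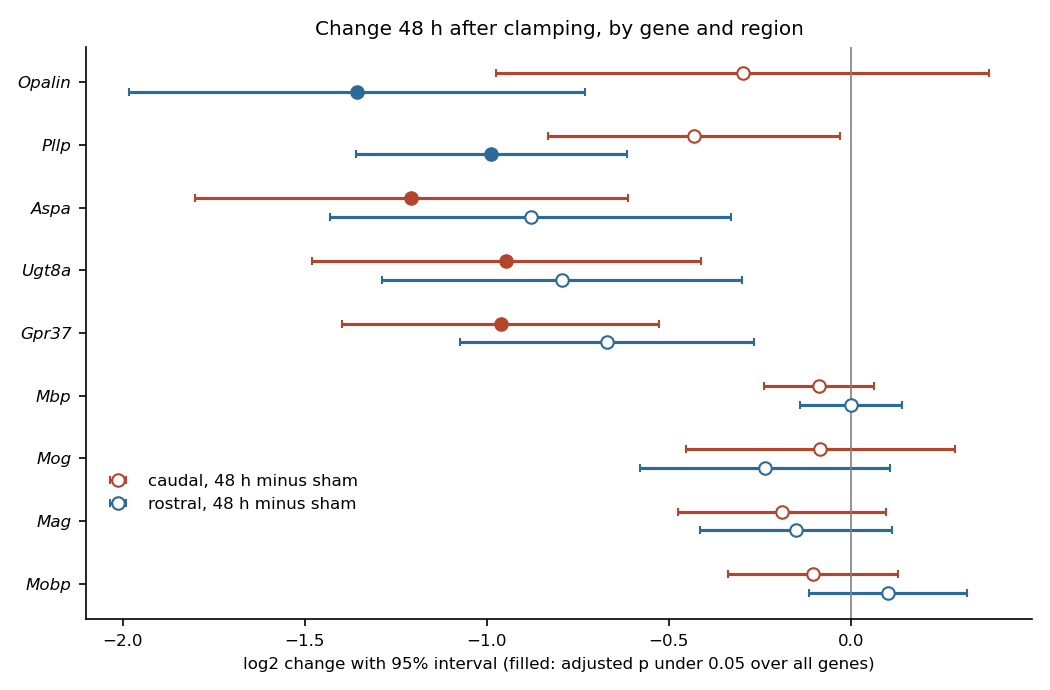
Log2 change of each gene 48 h after clamping relative to sham of the same region, with the 95% interval (horizontal axis; red for caudal and blue for rostral cord; filled points have an adjusted p under 0.05 over all genes). Filled points are Aspa, Ugt8a and Gpr37 in caudal cord and Opalin and Pllp in rostral cord, while the intervals of Mbp, Mog, Mag and Mobp include 0 in both regions.

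The contrast between the structural set (Mbp, Mog, Mag and Mobp) and the other set (Opalin, Pllp, Aspa and Ugt8a) was followed array by array. The measure was the mean departure of each set from its sham mean in the same region. The sets are not ranked by signal, as Mog averaged 10.77, below Pllp at 10.79 and Ugt8a at 11.97. On caudal 48 h arrays 271, 272, 273 and 274, the set of Opalin, Pllp, Aspa and Ugt8a stood at -0.48, -1.30, -0.69 and -0.41, and the structural set at -0.29, -0.19, -0.05 and 0.07. On the rostral 48 h arrays of the same numbers, the set of Opalin, Pllp, Aspa and Ugt8a stood at -1.39, -1.45, -0.85 and -0.32, and the structural set at -0.16, -0.12, -0.01 and 0.00. On 8 of 8 arrays the structural set was the nearer to sham and the other set below it. The difference between the sets averaged -0.60 ± 0.39 in caudal and -0.93 ± 0.46 in rostral cord at 48 h (SD, n = 4 each), with ranges of -1.11 to -0.19 and -1.33 to -0.32. At 24 h it averaged 0.01 ± 0.07 in caudal and -0.08 ± 0.01 in rostral cord (SD, n = 3 each). These are descriptions with no test, because the sets were drawn up with results of these data known. Mbp and Mobp lie near the top of the arrays' range, and the part of that brightness in the contrast was not tested. Mog, whose probe set averaged 10.77 and so lay far below the maxima, had interval limits of -0.45 to 0.29 in caudal and -0.58 to 0.11 in rostral cord.

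**Figure D3:**
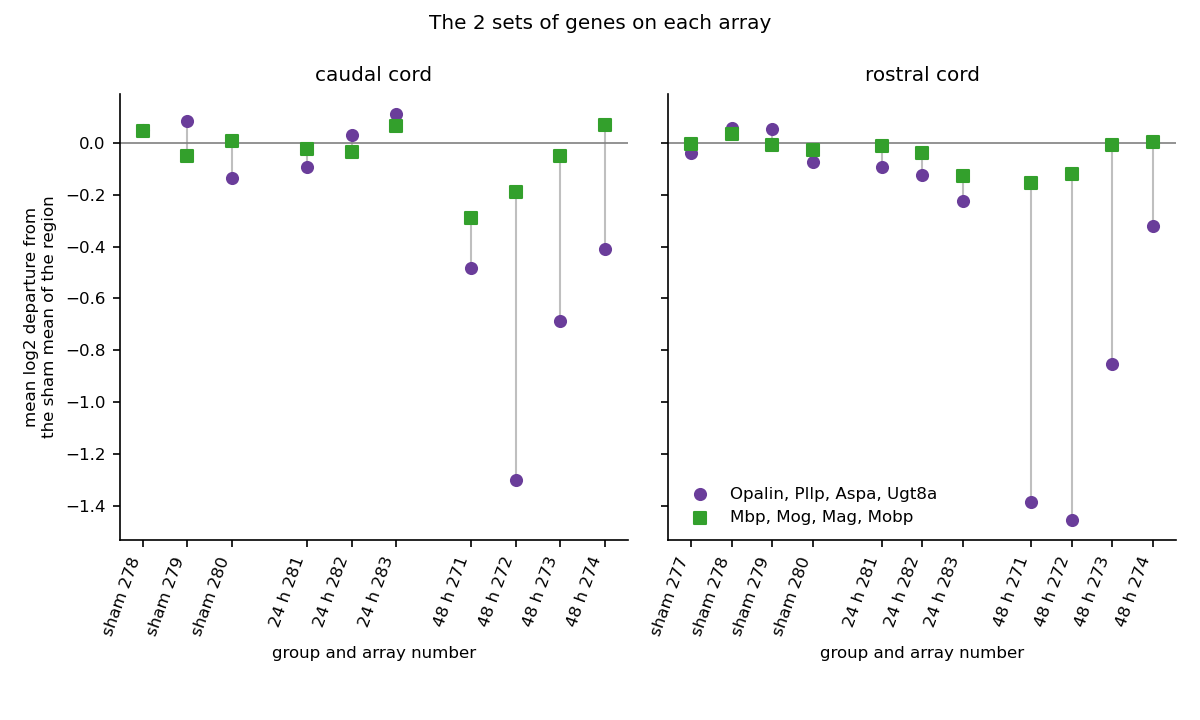
Mean log2 departure from the sham mean of the same region (vertical axis) on each array (horizontal axis, by group and array number), with purple circles for Opalin, Pllp, Aspa and Ugt8a and green squares for Mbp, Mog, Mag and Mobp. The circles lie below the squares on all 8 arrays at 48 h, by the least on caudal array 271 and rostral array 274, and near them at 24 h.

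At 24 h none of the 9 genes passed the test in either region, with 0.0055% of all genes called in caudal and 0% in rostral cord. Over all genes, 529 in caudal and 141 in rostral cord had an unadjusted p under 0.05. In caudal cord the largest change among the 9 was that of Gpr37, which had 10.82, 11.17 and 11.31 on arrays 281, 282 and 283, against 10.85, 11.00 and 10.41 after sham surgery. The groups overlapped, and the change was 0.35 ± 0.22 (-0.12 to 0.82; adjusted p = 1). The highest 24 h value is on array 283, whose Hox genes go against its caudal label, and the lowest sham value on array 280. The change was 0.24 without array 283, 0.18 without sham array 280 and 0.07 without caudal arrays 271, 274, 280 and both arrays numbered 283. Opalin had 10.50, 10.13 and 10.22, Aspa 10.34, 10.57 and 10.79, and Ugt8a 12.09, 12.46 and 12.41 in caudal cord at 24 h, all within or beside their sham ranges. In rostral cord the largest was that of Pllp, with 11.12, 11.04 and 10.92 against 11.18, 11.38, 11.40 and 11.11, a change of -0.24 ± 0.19 (-0.64 to 0.16; adjusted p = 1). Its lowest 24 h value is on rostral array 283, whose Hox genes go against its label. Without both arrays numbered 283 the Pllp change was -0.19. The intervals at 24 h leave room for changes of about the size of the smaller ones at 48 h. Aspa had an interval of -0.72 to 0.55 in caudal and of -0.72 to 0.47 in rostral cord, and Ugt8a one of -0.50 to 0.64 in caudal and of -0.55 to 0.51 in rostral cord.

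Set directly against 24 h, the caudal 48 h arrays were lower for the same 3 genes as against sham, with changes of -1.12 ± 0.28 for Aspa (adjusted p = 0.0233), -1.02 ± 0.25 for Ugt8a (adjusted p = 0.0227) and -1.31 ± 0.21 for Gpr37 (adjusted p = 0.00121). These are 3 of 9 genes, where 6.69% of all genes were called in either direction and 2.45% lower, and the 2 comparisons share the 48 h arrays. Pllp, at -0.60 (adjusted p = 0.0662), and Mag, at -0.28 (adjusted p = 0.203), also had all 48 h arrays below all caudal 24 h arrays without passing, as 6.94% of all genes did. Without both arrays numbered 283, 1 of the 9 genes was called. In rostral cord 0 of 9 genes were called between 48 h and 24 h, where 0.363% of all genes were called and 0.0165% were called lower. Opalin was at -1.16 ± 0.32 (adjusted p = 0.227) and Pllp at -0.75 (adjusted p = 0.146), each with all 48 h arrays below all 24 h arrays, as in 6.32% of all genes. Without caudal array 271 the adjusted p of Opalin in that comparison was 0.0162, and without rostral array 274 that of Pllp was 0.00404 and that of Ugt8a 0.0184.

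Between regions, after sham surgery, 0 of 9 genes were called, where 0.335% of all genes were. In 4 of the 9, Pllp, Gpr37, Mog and Mag, all caudal sham arrays lay below all rostral ones, as in 8.68% of all genes. Gpr37 had 10.85, 11.00 and 10.41 in caudal sham cord, against 11.32, 11.42, 11.32 and 11.30 in rostral sham cord. The difference was -0.59 ± 0.21 for Gpr37 (adjusted p = 0.576), -0.42 for Pllp (adjusted p = 0.865), -0.17 for Mog (adjusted p = 1) and -0.20 for Mag (adjusted p = 0.993). At 48 h Gpr37 was the 1 gene of 9 called between regions, where 9.71% of all genes were called and 4.14% were lower in caudal cord. The caudal arrays, at 9.49 to 10.31, reached the lowest rostral array, 271 at 10.31, but no more, and the difference was -0.88 ± 0.19 (-1.29 to -0.48; adjusted p = 0.00753). Opalin had the opposite sign at 48 h, with a caudal minus rostral difference of 0.92 ± 0.30 (0.30 to 1.55; adjusted p = 0.0575). The size rests in part on caudal array 271: without it the difference was 0.55 (adjusted p = 0.135), and without caudal arrays 271, 274 and 280 it was 0.26 (adjusted p = 0.473). With the array number as a random block and all arrays kept, the adjusted p of Opalin was 0.0358, and that of Gpr37 also passed. Caudal 24 h and rostral 24 h arrays differed for 0 of 9 genes, where 0% of all genes were called. Each of these groups holds an array numbered 283, whose Hox genes go against its label. The comparison therefore cannot show that the regions were alike at 24 h. Without caudal arrays 271, 274, 280 and both arrays numbered 283, 60 of all genes were called, and 0 of the 9.

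Whether clamping had a different effect in the 2 regions was tested as the difference of the 48 h changes, caudal minus rostral. None of the 9 genes passed, where 0.561% of all genes did. The difference was 1.06 ± 0.44 for Opalin (0.14 to 1.98; adjusted p = 0.381) and 0.56 ± 0.26 for Pllp (0.01 to 1.10; adjusted p = 0.405), with the change less negative in caudal cord in both. For Opalin the difference was 0.68 without caudal array 271 (adjusted p = 0.377) and 0.38 without caudal arrays 271, 274 and 280 (adjusted p = 0.542). For Aspa it was -0.33, for Gpr37 -0.29 and for Ugt8a -0.15. So the calls of Opalin and Pllp in rostral cord and of Aspa, Ugt8a and Gpr37 in caudal cord were not shown to differ between the regions.

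Mbp, Mobp, Ugt8a and Opalin have further probe sets. Of the 8 probe sets of Mbp, 6 averaged 14.15 to 14.55, and their changes at 48 h were between -0.12 and -0.02 in caudal and between -0.06 and 0.01 in rostral cord. The other 2 were dimmer and were lower in caudal cord, where 10% of all 34945 probe sets were called in either direction and 5.52% were lower. Probe set 1425263_a_at, which averaged 10.88, had 8.62, 10.28, 10.10 and 10.43 on caudal 48 h arrays 271, 272, 273 and 274, against 11.43, 11.15 and 11.62 after sham surgery. All clamped arrays were below sham, with array 271 far below the others. The change was -1.55 ± 0.28 (adjusted p = 0.00231). In rostral cord the same probe set had 10.52, 11.10, 10.86 and 10.87 against 11.28, 11.28, 11.32 and 11.25, all below sham as well but with a change of -0.45 ± 0.26 (adjusted p = 0.935), and 0.406% of all probe sets were called there. At 48 h its caudal minus rostral difference was -0.98 (adjusted p = 0.0282), where 7.76% of all probe sets were called.

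The other dim Mbp probe set, 1425264_s_at, averaged 8.11 and had 7.32, 7.92, 8.08 and 7.85 in clamped caudal cord, against 8.29, 8.26 and 8.22 in sham cord. Its change was -0.47 ± 0.12 in caudal cord (adjusted p = 0.0227) and -0.09 in rostral cord (adjusted p = 1). Which transcripts of Mbp these 2 probe sets read is not stated in the sources used here, so the gene's probe sets disagree and the level of Mbp RNA as a whole is not settled by the brightest. For Mobp, 5 probe sets had changes between -0.10 and 0.10 in caudal and between 0.00 and 0.48 in rostral cord, and none was called. The highest, 1436263_at in rostral cord, was at 0.48 ± 0.23 (adjusted p = 0.76). The second probe set of Ugt8a gave -0.83 ± 0.51 in caudal (adjusted p = 0.263) and -0.92 ± 0.47 in rostral cord (adjusted p = 0.837), in the direction of the first. The second of Opalin averaged 4.34, near the floor of the arrays.

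**Figure D4:**
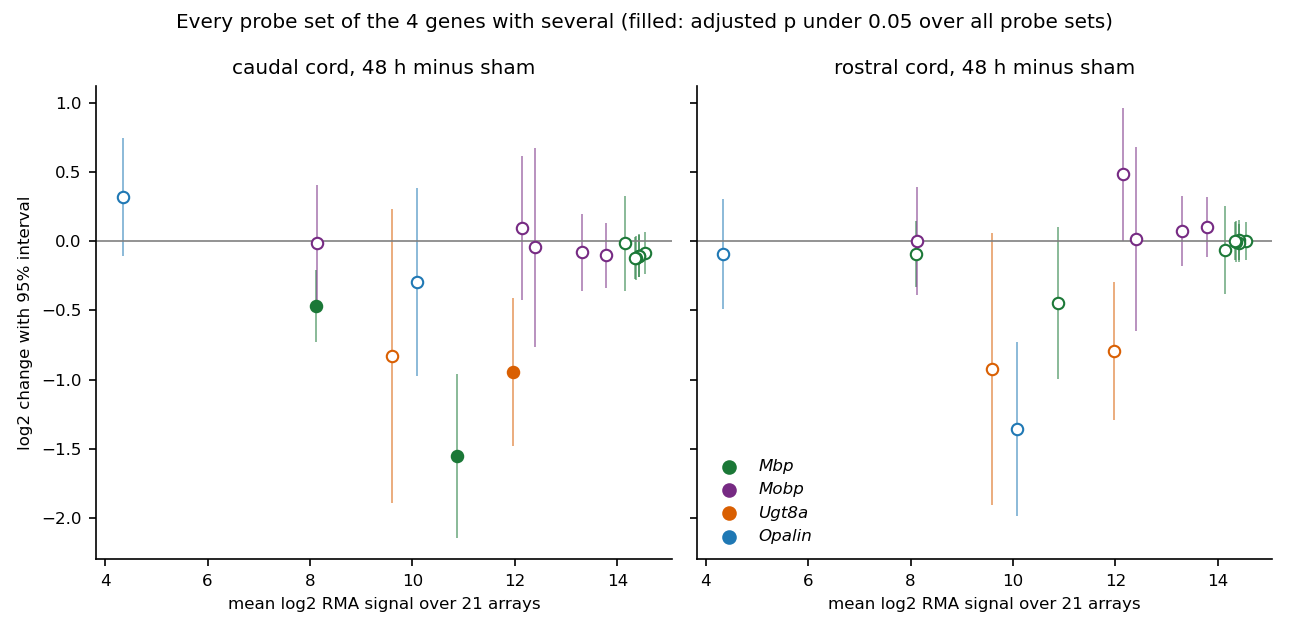
Log2 change at 48 h relative to sham, with the 95% interval (vertical axis), of every probe set of Mbp, Mobp, Ugt8a and Opalin against its mean log2 signal over 21 arrays (horizontal axis), for caudal (left) and rostral cord (right); filled points have an adjusted p under 0.05 over all probe sets. The 6 brightest Mbp probe sets lie near 0 in both regions, and the 2 dimmer ones are lower in caudal cord.

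Other genes were taken from 8 lists drawn up around oligodendrocytes, which hold 111 further measured genes. The lists also include genes of other cells, such as the neuronal Nat8l. Their counts and medians are therefore not those of oligodendrocyte RNA alone. In caudal cord at 48 h, 20 of the 111 were lower and 3 higher, 89 had a negative change, and their median was -0.34, against 0.00 over all genes, of which 7.01% were called lower and 5.52% higher. Without array 271 the counts were 23 lower and 4 higher with a median of -0.19, and without both arrays numbered 283 they were 10 lower and 2 higher. In rostral cord 1 of 111 was lower and 0 higher, where 0.143% and 0.473% of all genes were, 85 were negative and the median was -0.14. Without caudal array 271, whose values enter the pooled spread, 7 were lower and 1 higher in rostral cord. At 24 h, 0 of 111 were called in either region, with medians of 0.00 in caudal and -0.01 in rostral cord.

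In the list of 17 other myelin proteins, in caudal cord at 48 h, Tppp, which organises oligodendrocyte microtubules, fell by 0.93 (adjusted p = 0.0379). Septin4, a septin of the myelin sheath, fell by 0.58 (adjusted p = 0.0362). Cldn14, a claudin put in the same list, rose by 0.83 (adjusted p = 0.0194), and the median of the list was -0.32. Without caudal array 271, 0 of the 17 were called lower and the median was -0.13. Without both arrays numbered 283, 0 were called lower as well. Of 14 genes of galactolipid and sphingolipid synthesis, which share the pathway of Ugt8a, Elovl7, a fatty acid elongase, fell by 0.81 (adjusted p = 0.0304) and Arsa, which desulfates sulfatide, fell by 0.31 (adjusted p = 0.0438), with a median of -0.29. Without caudal array 271 that median was -0.07, with 3 genes called lower. Without both arrays numbered 283, 1 of the 14 was called lower. Of 12 genes of acetyl and amino acid metabolism, which share the pathway of Aspa, Nat8l fell by 0.98 (adjusted p = 0.0420). Nat8l is the neuronal enzyme that makes N-acetylaspartate, the substrate of Aspa. In the same list Gamt, of creatine synthesis, fell by 0.46 (adjusted p = 0.0361), and the median was -0.27. Without caudal array 271 the median of that list was -0.21 and 2 genes were called lower. Without both arrays numbered 283, 0 of that list were called lower.

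Among 9 receptors grouped with Gpr37, Gpr17, a receptor of cells about to differentiate, fell by 1.66 (adjusted p = 0.000994) and Gprc5b fell by 0.77 (adjusted p = 0.0204), with a median of -0.51. Among 13 transcription factors of the lineage, Sox8 fell by 1.13 (adjusted p = 0.00604) and Olig2 fell by 0.95 (adjusted p = 0.0325), with a median of -0.44. Of 11 precursor genes, Gpr17 again, Cspg4 (the NG2 proteoglycan) at -0.48 (adjusted p = 0.0232) and Cacng4 at -0.88 (adjusted p = 0.0366) were lower, and the median was -0.33. Without caudal array 271 the medians of the receptors, transcription factors and precursor genes were -0.27, -0.18 and -0.23. Without both arrays numbered 283, 2 receptors, 1 transcription factor and 2 precursor genes were called lower. Genes called lower in caudal cord thus included markers of precursors as well as of mature cells.

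In the list of 13 paranode, gap junction and axon contact genes, Gjc3 (connexin 29) fell by 0.82 (adjusted p = 0.00503), Kcnj10, a potassium channel of glia, fell by 0.76 (adjusted p = 0.0366) and Cntnap2 fell by 0.38 (adjusted p = 0.0332). Gjb1 (connexin 32) rose by 1.01 (adjusted p = 0.0397), and the median was -0.64. Without caudal array 271 that median was -0.23, with 5 genes called lower and 1 higher. Without both arrays numbered 283, 1 of the 13 was called lower and 0 higher. In the list of 24 cytoskeleton and trafficking genes, Pacsin3 had a change of -0.47 (adjusted p = 0.0141), Erbb3, a neuregulin receptor, of -1.09 (adjusted p = 0.0146) and Sgk2 of -0.67 (adjusted p = 0.0212), and 2 others were also lower. Il33, an alarmin held in oligodendrocyte nuclei, rose by 1.16 (adjusted p = 0.000934), and the median was -0.32. Without caudal array 271 the median of these 24 was -0.17, with 7 called lower and 1 higher. Without both arrays numbered 283, 4 were called lower and 1 higher.

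With all 21 arrays, the 1 call among the 111 in rostral cord was Gal3st1, which adds the sulfate that turns galactosylceramide, the product of Ugt8a, into sulfatide. Its change was -0.50 ± 0.10 in rostral (adjusted p = 0.0223) and -0.29 in caudal cord (adjusted p = 0.0794). The genes with the smallest p in the other lists, none of which passed, included Car2, a carbonic anhydrase, at -0.80 (adjusted p = 0.0944), Gpr17 at -0.90 (adjusted p = 0.176), Nkx2-2 at -0.76 (adjusted p = 0.128) and Enpp6, of newly formed oligodendrocytes, at -0.74 (adjusted p = 0.0924). Medians of the 8 lists were between -0.18 and -0.04.

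**Figure D5:**
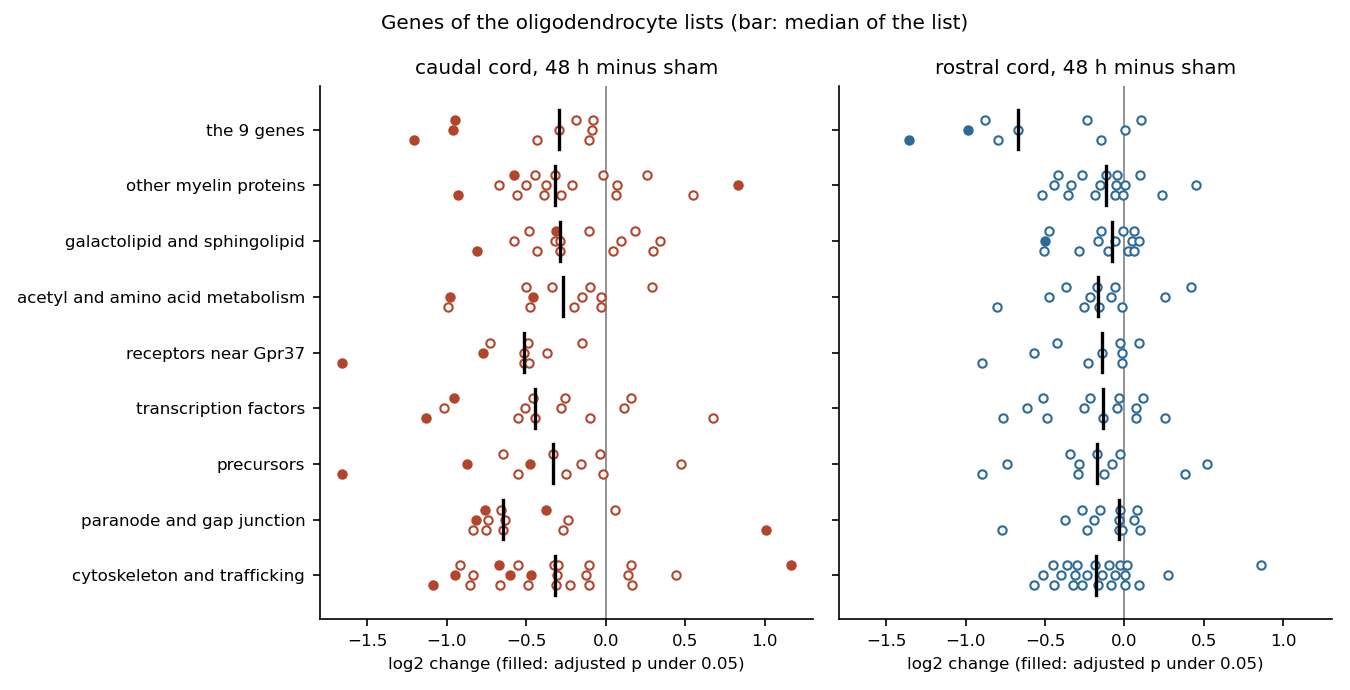
Log2 change at 48 h relative to sham (horizontal axis) of each gene of the 9 genes and of the 8 other oligodendrocyte lists (vertical axis), for caudal (left) and rostral cord (right); filled points have an adjusted p under 0.05 over all genes, and black bars are list medians. Every list median is below 0 in both regions, and filled points other than those of the 9 genes number 1 in rostral cord.

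Markers of other cell types moved with these results, and their part in them was not tested. At 48 h in caudal cord, 7.01% of all genes were called lower than sham and 5.52% higher. In clamped caudal cord at 48 h, the mean of 13 neuronal markers ranged from 11.24 to 12.43 over the arrays, against 12.55 to 12.60 after sham surgery, with 2 lower and 0 higher. The mean of 9 monocyte and macrophage markers ranged from 8.26 to 9.44 against 7.09 to 7.30, with 4 higher. The mean of 9 microglial markers ranged from 8.76 to 9.17 against 8.71 to 8.85, with 3 higher and 1 lower. The mean of 11 endothelial markers ranged from 7.38 to 8.25 against 8.53 to 8.64, with 7 lower. The astrocyte mean ranged from 11.65 to 12.25 against 12.04 to 12.07, and that of 10 Schwann cell markers from 8.40 to 9.34 against 9.01 to 9.14. The 11 cardiac muscle markers averaged 6.56 to 8.09 against 5.83 to 5.93 in caudal cord. The lower Aspa, Ugt8a and Gpr37 signals in caudal cord thus came on arrays with lower neuronal and endothelial means and a higher macrophage mean.

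In rostral cord the neuronal mean was 12.42 to 12.53 on clamped 48 h arrays against 12.43 to 12.55 on sham arrays, the macrophage mean 7.20 to 7.88 against 7.07 to 7.22, and the endothelial mean 8.27 to 8.56 against 8.49 to 8.64. The microglial mean was 8.39 to 8.92 against 8.93 to 9.12, so below every sham array, and the Schwann cell mean 7.78 to 8.21 against 7.83 to 8.01. The astrocyte mean was 12.16 to 12.20 against 12.07 to 12.15, with every clamped array above every sham array. No gene of these 6 lists was called in rostral cord with all 21 arrays. Without caudal array 271, 2 macrophage, 1 astrocyte and 1 Schwann cell marker were called higher. In that fit 421 of all 18193 genes were called in either direction. The cardiac muscle mean was 9.41 to 10.79 against 5.87 to 5.95, with 10 of 11 markers higher, where 0.473% of all genes were. By array it was 9.41, 10.79, 10.64 and 10.35 on arrays 271, 272, 273 and 274. Opalin had 8.71, 8.71, 9.38 and 9.81 on the same arrays. Rostral Opalin and Pllp were thus lower where neuronal markers stood near sham and cardiac muscle RNA was present; its part in the change was not tested.

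By correlation over the 21 grouped arrays, the genes outside the 9 whose pattern was most like the mean z-score of Opalin, Pllp, Aspa and Ugt8a were Serpinb1a (r = 0.963), Pamr1 (0.944), Enoph1 (0.936), Tst (0.920), Car2 (0.918) and Ankub1 (0.905). The arrays share treatment groups, so r is a description. Serpinb1a, a serine protease inhibitor, was lower at 48 h in both regions, with changes of -1.34 in caudal (adjusted p = 0.0146) and -1.45 in rostral cord (adjusted p = 0.0319). Pamr1 was lower in both as well, at -0.53 in caudal (adjusted p = 0.0149) and -0.55 in rostral cord (adjusted p = 0.0452). The genes most like the mean z-score of Mbp, Mog, Mag and Mobp were Rftn1 (r = 0.969), Pde1b (0.963), Omg (0.961), Vxn (0.960), Arsg (0.959) and Tmem44 (0.953). Omg, a myelin glycoprotein of oligodendrocytes, is the 1 of these 6 that is in the oligodendrocyte lists used here. The 6 genes had changes between -0.85 and -0.30 in caudal cord at 48 h, and that of Tmem44 passed (adjusted p = 0.0344). Of the 21 arrays, caudal 48 h array 271 had the lowest Mbp, Mag and Mobp values and the highest Mog value. The part of that array in r was not tested.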

How the data were processed

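Cord RNA had been put on 22 Affymetrix Mouse430_2 arrays. Deposited values are log2 signals that the authors obtained with RMA, as the submitters' processing notes name it without a version, and no further normalisation was applied. The table has 45101 probe sets: 64 controls, 34945 that the platform annotation ties to a single gene symbol, 932 tied to several and 9160 to none listed. Single-symbol probe sets were kept, and for each gene the brightest of them by its average over grouped arrays, which left 18193 genes. Groups follow the labels, and rostral array 276 was left out because its labels give 2 times.

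Group means (6 groups, 21 arrays) came from limma 3.58.1 with lmFit and eBayes in R 4.3.3 (with statmod 1.5.0 for block and weights), with 18.7 degrees of freedom including the prior; the procedure was tested on simulated data first. Tests are two-sided, with Benjamini-Hochberg adjustment over all genes of a comparison and calls at an adjusted p under 0.05. Figures and motif searches used Python 3.11.15 and matplotlib 3.10.9. The members and lists were chosen with earlier results of these data known. By rule, all 9 genes are named, and from each other list at most 4 genes that passed, or else those with the smallest p; at 24 h the lists are given as counts. Titles number 10 pairs of caudal and rostral arrays alike. No label says that a number marks an animal, and the deviations of same-numbered arrays correlated at over 0.1 in 6 of 10 pairs (range -0.45 to 0.53), so the number is a block in alternatives only. No array has a read depth, and the number of arrays limits the precision. Alternatives changed the probe set rule, normalisation, filter, variance model, array weights, arrays in the fit, replicate block and place of array 276. They also left out each array and those that stand apart. Leaving out caudal array 271 together with both arrays numbered 283 was chosen after seeing the data. So were the counts and medians of list genes without caudal array 271.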

Additional observations from a re-analysis of the deposited data

Results flagged for a closer look

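In the groups of 4 arrays, a value stood apart from the other 3 by more than Dixon's critical share of the group's range in 4 of the 27 gene and group combinations examined; chance alone gives about 1 in 20. On caudal 48 h array 271, Mag had 11.6822, against 12.3834 to 12.4622 on the other 3 arrays, and Mobp had 13.2432, against 13.7693 to 13.8472. In rostral sham cord, Gpr37 had 11.4211 on array 278, against 11.3029 to 11.3194 on the others, and Mobp had 13.6883 on array 279, against 13.8151 to 13.8302. Array 271 is also the one with the narrower spread of values over all genes. Both outlying values of that array are low, while its Opalin value of 11.21 is the highest of the caudal 48 h arrays.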

How the results depend on the processing

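Over 36 changes of the 9 genes and 1302 alternative values of them, 1192 kept their direction and their side of the threshold, 51 lost a call, 43 gained one and 16 changed sign. The sign changes were in 5 results, none above 0.122 in size. In caudal cord, 48 h against sham, Opalin was at 0.00919 with probe sets averaged, and Mobp at 0.000215 with array weights, at 0.0514 without caudal arrays 271, 274 and 280 (with or without both arrays numbered 283) and at 0.0379 without array 271 and both arrays numbered 283. Leaving out 1 array at a time gave -0.67 to -0.06 for Opalin, -0.23 to 0.12 for Mog (0.12 without caudal array 272) and -0.163 to 0.0379 for Mobp. In rostral cord Mbp was at -0.0762 with the mean of probe sets, -0.00956 with centred arrays, -0.000875 with array weights, -0.00335 with array 276 counted as 48 h, and -0.0112 to 0.00872 without single arrays. Opalin, caudal 48 h against 24 h, was at 0.0670 with the mean of probe sets and at -0.58 to 0.0347 without single arrays (0.0347 without caudal array 272). The second Opalin probe set lies near the floor of the arrays.

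The number of the 9 genes called moved with the setting. In caudal cord, 48 h against sham, 3 were called; this was 5 with array weights or without caudal arrays 271, 274 and 280, 0 in a fit of the compared groups only (fewer arrays), and 1 to 3 without single arrays, with 1 without sham array 278 or 279. In rostral cord 2 were called; this was 1 with the mean of probe sets, every probe set, repeated quantile normalisation, centred arrays, the brighter genes or without both arrays numbered 283, 4 with the compared groups only or without caudal arrays 271, 274 and 280 (with or without those numbered 283), 5 with array weights, 0 with array 276 as 48 h, and 0 to 5 without single arrays. Caudal 48 h against 24 h, 3 became 5 with array weights or without arrays 271, 274 and 280, 0 with the compared groups only, 1 without both arrays numbered 283 (with or without array 271), and 1 to 4 without single arrays. Rostral 48 h against 24 h, 0 became 5 with array weights, 2 without caudal arrays 271, 274 and 280, 1 when those numbered 283 were left out too, and 0 to 2 without single arrays. Between regions after sham surgery, 0 became 1 with array weights or the compared groups only. Between regions at 48 h, 1 became 0 with array weights or the compared groups only, 2 with the mean of probe sets, with array 276 as 24 h, without caudal arrays 271, 274 and 280 or with the number as a random or as a fixed replicate block, and 1 to 2 without single arrays; the blocks changed no other number of calls by more than 1.5 times. Apart from the fewer arrays named, the causes were not tested. Array weights gave caudal 48 h array 271 a weight of 0.0265 and caudal 48 h array 273 a weight of 2.785, the highest of that group. Over all genes, calls at 48 h against sham in caudal cord ranged from 142 (compared groups only) to 6261 (array weights) around 2279. In rostral cord they ranged from 35 (brighter genes only) to 1849 (array weights) around 112. Against 24 h, array weights gave 4079 calls over all genes in place of 1217 in caudal cord, and 1122 in place of 66 in rostral cord. The higher counts among the 9 genes with array weights thus came with more calls over all genes. The mean difference between the 2 sets of genes at 48 h ranged from -0.95 to -0.44 in caudal and from -1.14 to -0.78 in rostral cord. Mbp and Mobp lie near the top of the signal range, and how far that limits a change was not tested.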

Other observations

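Rostral array 276, whose labels give both 24 h and 48 h, had 10.42 for Opalin, 11.12 for Pllp, 10.48 for Aspa and 12.26 for Ugt8a. Its Opalin and Pllp values lie above all rostral 48 h arrays, and its Aspa and Ugt8a values within the rostral 48 h range. It had 10.97 for Gpr37, 14.53 for Mbp, 11.04 for Mog, 12.57 for Mag and 13.78 for Mobp. The mean of its cardiac muscle markers was 10.53, against 5.94 to 6.13 on the rostral 24 h arrays, 9.41 to 10.79 on the rostral 48 h arrays and 5.87 to 5.95 on the rostral sham arrays. Counted as a rostral 48 h array, it left neither Opalin (adjusted p = 0.361) nor Pllp (adjusted p = 0.128) called against rostral sham by limma.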
